A study of Mus musculus with 9 samples.

Results

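The ZEB1 peaks at genes of histone deacetylases, sirtuins, histone lysine demethylases and histone lysine methyltransferases are described here, in mouse breast cancer cells before and during treatment with eribulin. Genes were taken by symbol, as Hdac, Sirt, Kdm, Kmt or Ezh followed by a number. A peak belonged to such a gene when its centre lay inside the gene, or when the gene had the nearest protein-coding boundary within 50 kb. Of 46 genes with such a symbol 40 had a peak, and they held 100 of the 23623 consensus peaks (0.423%). Hdac8, Hdac10, Kdm4d, Kdm5d, Sirt1 and Sirt2 had none.

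The cells were PB3-Parental, a mouse line that its label describes as negative for the receptors Er, Pr and Her2, and all groups share this line and its culture medium. An untreated control was compared with 24, 48 and 72 h in 300 nM eribulin, a drug that binds microtubule ends, with 2 ZEB1 CUT&RUN libraries in each of the 4 groups. 1 further library was made with IgG in place of the ZEB1 antibody. Controls for the separate times are not among the groups used here, so each time is set against the same pair of untreated libraries. The libraries hold cut DNA and no RNA, so expression of these genes and of markers of the cell type was not analysed here.

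Histone deacetylases and sirtuins remove acetyl groups from lysines, the former with zinc and the latter with NAD, and both families also act on proteins other than histones. Kdm enzymes remove methyl groups from histone lysines, Kmt and Ezh enzymes add them, and each enzyme prefers certain lysines, so that the sets together write and erase marks of active and silent chromatin. ZEB1 is a zinc-finger factor that binds E-box DNA and is known to repress epithelial genes by recruiting corepressor complexes, some of which contain a histone deacetylase or the demethylase encoded by Kdm1a. A peak says that ZEB1 signal lay beside or inside a gene, and not that ZEB1 regulates it.

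Of the 100 peaks 68 had their centre inside the gene and 32 were assigned by the nearest boundary alone. By position 29 lay within 1 kb of a protein-coding gene boundary, 55 deeper inside a gene and 16 outside. Exons and introns were not told apart, because the gene table gives only the ends of each gene. There were 22 genes with 1 peak and 18 with more, and Hdac4 and Kmt2e each had 10. The farthest peak taken lay 46046 bases from its gene, and the nearest one not taken lay 56129 bases from Kmt2e, at 25.4 to 46.2 CPM. CPM is a count scaled to the TMM-adjusted total of its library in tested peaks.

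Promoter sequence is shown for the 6 genes whose own start carried a peak called in any comparison, to let the ZEB1 E-box be seen in place. The RefSeq table of start sites on GRCm38.p6 holds 31 of the 40 genes, and 22 peaks of 21 genes overlapped such a window of 250 bases before to 50 bases after a start. Hdac1, Hdac3, Kdm2a, Kdm3b, Kdm4b, Kdm5a, Kdm6b, Kmt2b and Kmt2e are not in it. The 250 bases upstream of the start are given 5′ to 3′ on the strand of the gene, with each CAGGTG or its reverse complement CACCTG in capitals. Ezh1 lies on the minus strand at chr11:101226464-101226713, Kdm4c on the plus strand at chr4:74251629-74251878, Ezh2 on the minus strand at chr6:47595031-47595280 and Kdm2b on the minus strand at chr5:122900368-122900617. Kdm3a lies on the minus strand at chr6:71632918-71633167 and Kdm1b on the plus strand at chr13:47043249-47043498.
Ezh1: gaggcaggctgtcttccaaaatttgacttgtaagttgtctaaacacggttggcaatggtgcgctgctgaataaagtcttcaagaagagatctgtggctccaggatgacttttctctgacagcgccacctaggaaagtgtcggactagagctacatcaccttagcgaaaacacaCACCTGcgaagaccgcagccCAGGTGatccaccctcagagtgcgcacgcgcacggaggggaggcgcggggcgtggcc
Kdm4c: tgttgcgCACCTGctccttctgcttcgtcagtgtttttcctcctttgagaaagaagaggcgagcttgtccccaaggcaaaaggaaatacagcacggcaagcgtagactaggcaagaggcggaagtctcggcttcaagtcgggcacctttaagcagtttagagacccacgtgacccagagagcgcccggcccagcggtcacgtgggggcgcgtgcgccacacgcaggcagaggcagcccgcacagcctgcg
Ezh2: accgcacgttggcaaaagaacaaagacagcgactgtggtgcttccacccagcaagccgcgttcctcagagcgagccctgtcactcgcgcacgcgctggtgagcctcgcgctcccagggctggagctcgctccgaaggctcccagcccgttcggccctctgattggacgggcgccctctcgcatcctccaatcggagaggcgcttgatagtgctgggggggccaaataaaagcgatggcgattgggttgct
Kdm2b: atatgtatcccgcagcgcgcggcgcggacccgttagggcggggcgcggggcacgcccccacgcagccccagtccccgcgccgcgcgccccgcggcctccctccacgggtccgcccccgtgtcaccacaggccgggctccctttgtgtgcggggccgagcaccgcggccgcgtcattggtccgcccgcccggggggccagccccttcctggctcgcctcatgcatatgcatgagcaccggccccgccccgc
Kdm3a: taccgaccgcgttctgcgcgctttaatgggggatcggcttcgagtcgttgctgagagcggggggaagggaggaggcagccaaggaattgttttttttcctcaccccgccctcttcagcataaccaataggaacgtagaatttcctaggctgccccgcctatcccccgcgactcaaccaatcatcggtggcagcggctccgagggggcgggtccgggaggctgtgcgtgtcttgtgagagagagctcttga
Kdm1b: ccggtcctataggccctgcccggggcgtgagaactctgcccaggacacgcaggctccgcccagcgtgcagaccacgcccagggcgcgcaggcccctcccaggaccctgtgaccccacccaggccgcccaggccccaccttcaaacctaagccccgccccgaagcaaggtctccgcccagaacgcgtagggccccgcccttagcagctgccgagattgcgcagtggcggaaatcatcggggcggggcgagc

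The Ezh1 stretch holds 2 matches, the Kdm4c stretch 1, and those of Ezh2, Kdm2b, Kdm3a and Kdm1b none. Over windows of 300 bases, CAGGTG on either strand was present in 6 of the 22 under a peak of these genes (27.3%). It was present in 19.7% of the 21238 protein-coding windows and in 16.2% of the 6438 under any consensus peak. The AP-1 letters TGANTCA, on either strand, were in 2 of the 22 windows against 6.99% of all, and CACGTG was in 3 of the 22 against 7.84% of all. In windows under any consensus peak the shares were 4.95% for AP-1 and 10.6% for CACGTG. With 22 windows these shares are descriptions, and a match is not a site of binding.

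Counts in all consensus peaks summed to between 326944 and 765015 per library, so that 1 count was worth 1.32 to 3.14 CPM. Of the 100 peaks 92 passed the filter on low counts, against 89.7% of all peaks. The 8 that did not pass had 0 to 11 counts per library and lay at Hdac2, Hdac7, Hdac9, Kmt2d, Kmt2e and Kmt5a. The median over the tested peaks was 37.9 CPM, beside 35.5 CPM for all tested peaks. Replicates of a group differed about as much as random draws from 1 pool (chi-square per degree of freedom 0.931 to 1.06), and the labels do not say that they were separate cultures. All p-values below therefore measure only the spread between these libraries.

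Per kilobase of peak, the highest level was at the boundary of Kmt5c, one of the enzymes that add further methyl groups to lysine 20 of histone H4, with 293 CPM per kb. Its peak at chr7:4739579-4740279 held 206 and 222 CPM in the controls, 172 and 201 after 24 h, 226 and 212 after 48 h and 180.3 and 226 after 72 h. The 24 h pair lay below both controls and the other times overlapped them, no time was called, and the mean change was -0.09 ± 0.12 (log2, SE). The Hdac peak with the highest mean CPM, at an annotated start of Hdac4, a signal-regulated class IIa deacetylase that works with DNA-binding factors, held 131 to 166 CPM in all 8 libraries. It changed by -0.06 ± 0.13 on the log2 scale and was not called in any comparison.

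Over the mean of the 3 times against control, 18 of the 92 tested peaks passed the test, 12 higher and 6 lower. The test was edgeR's quasi-likelihood F-test with Benjamini-Hochberg adjustment over all 21192 tested peaks at 0.05, fitted on all 8 libraries. The share called among all peaks was 16.8%, with 8.27% higher and 8.53% lower, so the count called lies near that background. The median log2 fold change was 0.08 for these genes and -0.01 for all peaks. In 15 of the 18 the control and treated libraries did not overlap. The 18 were called on these same libraries, so this is no separate support, and the share over all called peaks was not counted.

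By enzyme class, 4 of 22 class IIa deacetylase peaks were higher and 1 lower, 1 of 2 class I peaks was higher, and 2 of 3 peaks of Hdac11, the class IV enzyme, were lower. Among demethylases of the JmjC type, which use iron and oxoglutarate, 4 of 29 peaks were higher and 1 lower, and 0 of 3 peaks of the amine oxidases Kdm1a and Kdm1b were called (0 at unadjusted p below 0.05). Of the Kmt5 peaks 1 of 9 was higher and 1 lower, and 0 of 12 Kmt2 peaks were called (2 at unadjusted p below 0.05, and 0 by DESeq2, which gave 9 of them an adjusted p). Both Ezh genes had a higher peak, 2 of 3 in all, and 1 of 7 sirtuin peaks was lower.

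**Figure D1:**
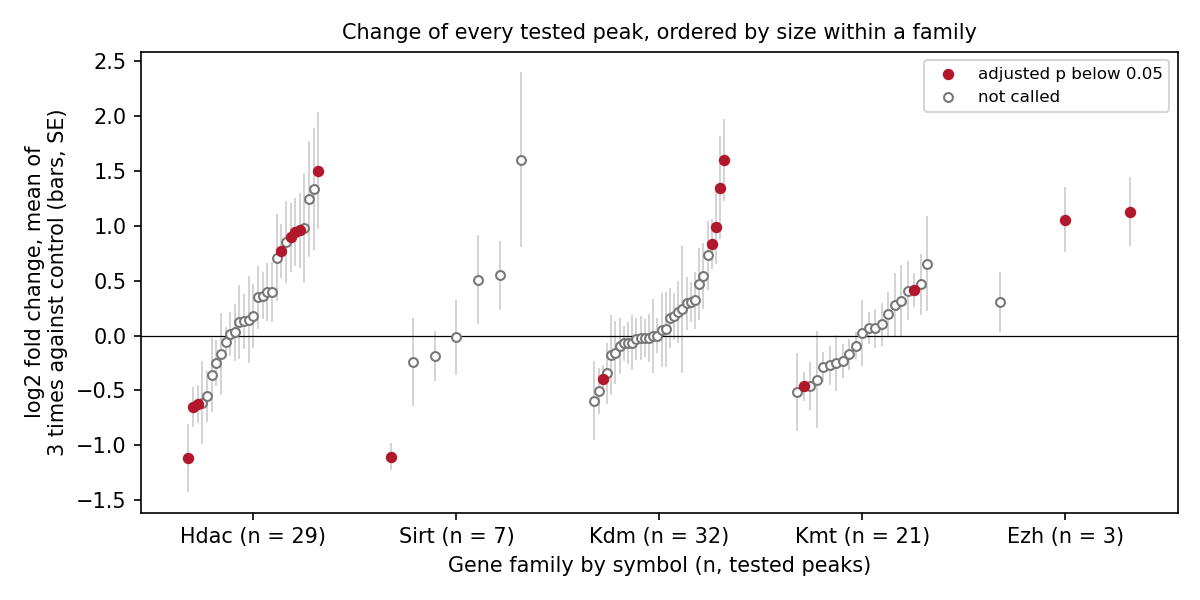
Log2 fold change of the mean of 24, 48 and 72 h against control for each of the 92 tested peaks, grouped by gene family and ordered by size (bars, SE; filled points, adjusted p below 0.05). The called Sirt4 peak is at -1.10 and the highest called point is a Kdm2b peak at 1.60.

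These calls depended on the libraries used and on their depth. With libraries thinned to 326944 counts, 5 of the 18 were kept. Control replicate 2 was the deeper control, with 672582 counts against 372896, so its loss cannot be told apart from a loss of depth. Without control replicate 2 the Sirt4 peak alone was called in the mean comparison, where 3.0% of all peaks were called, and DESeq2, which gave an adjusted p for 65 of the 92 and 15 of the 18, also called that peak alone (1.63% of all peaks with an adjusted p). No called peak changed sign in any alternative, but all alternatives reuse the libraries on which the calls were made. Fewer cells with signal at a site cannot be told apart from less signal per cell.

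**Figure D2:**
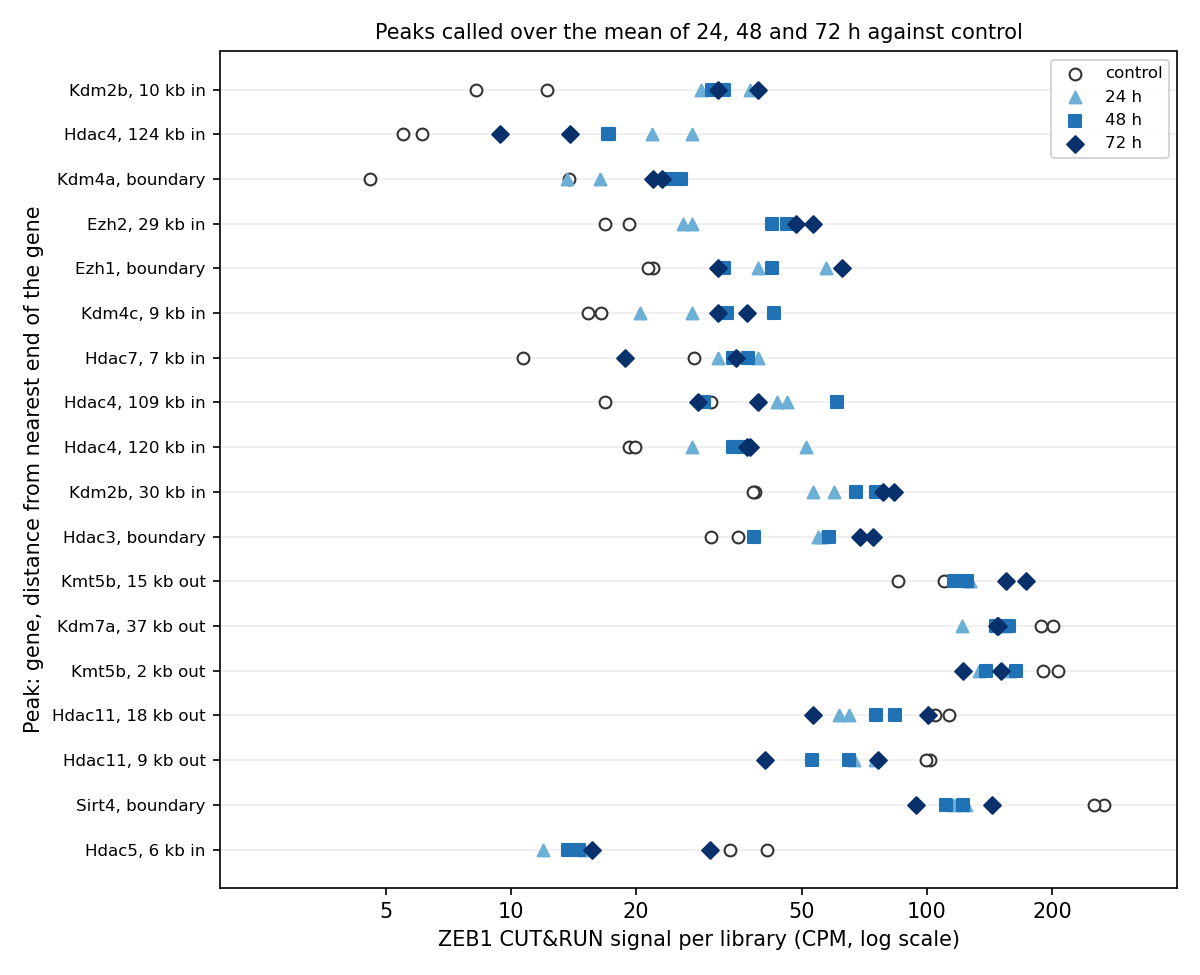
CPM of each library (log axis) for the 18 peaks called over the mean of the 3 times, from the largest rise at the top to the largest fall at the bottom, with the distance of the peak from the nearest end of its gene. The open control circles lie apart from all treated points except at Kdm4a, Hdac7 and the Hdac4 peak 109 kb inside the gene.

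The catalytic subunits of Polycomb repressive complex 2, Ezh1 and Ezh2, methylate lysine 27 of histone H3. The peak at the start of Ezh1 (chr11:101226277-101226714), which covers the 2 E-box matches printed above, held 22.0 and 21.4 CPM in the controls, 39.2 and 57.3 after 24 h, 42.3 and 32.5 after 48 h and 62.4 and 31.4 after 72 h. All 6 treated libraries were above both controls, although the 72 h pair was wide. The rise over the mean of the times was 1.06 ± 0.30 (log2, SE; edgeR adjusted p = 0.00795). It was called at 24 and 72 h, and at 48 h the change of 0.81 ± 0.35 was not. The 72 h change of 1.18 became 0.53 without 72 h replicate 1 and was then not called.

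Ezh2 had 2 peaks. The one 29 kb inside the gene (chr6:47559330-47559652) held 19.3 and 16.8 CPM in the controls, 27.3 and 25.9 after 24 h, 42.3 and 46.2 after 48 h and 48.5 and 53.3 after 72 h. No treated library overlapped the controls, and each later time lay above the one before. The change was 0.58 ± 0.39 at 24 h, not called, then 1.30 ± 0.35 at 48 h and 1.50 ± 0.38 at 72 h, both called. At the start of Ezh2 (chr6:47595025-47595339), which also lies in the noncoding gene F830010H11Rik, the controls held 35.8 and 27.5 CPM and the treated libraries 29.0 and 20.5, 43.7 and 34.2, and 50.8 and 62.7 in order of time. That peak was not called against control, and it was higher at 72 h than at 24 h by 1.20 ± 0.33 (edgeR adjusted p = 0.0194).

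Class I deacetylases are the catalytic parts of the large corepressor complexes, Hdac1 in Sin3, NuRD and CoREST and Hdac3 in NCoR. The Hdac3 boundary peak, which also overlaps Rell2, held 30.3 and 35.2 CPM in the controls, 54.6 and 55.9 after 24 h, 38.4 and 58.2 after 48 h and 74.0 and 69.0 after 72 h. Every treated library was above the controls. It rose by 1.10 ± 0.31 at 72 h and by 0.77 ± 0.25 over the mean of the times (edgeR adjusted p = 0.022). The Hdac1 boundary peak (chr4:129542542-129542829) held 33.0 and 27.5 CPM in the controls, 20.5 and 34.1 after 24 h, 38.4 and 32.5 after 48 h and 60.1 and 56.5 after 72 h. Only the 72 h libraries stood apart, and the rise was called there (0.98 ± 0.33) but not over the mean of the times (0.40 ± 0.28).

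Class IIa deacetylases have weak catalytic activity of their own and shuttle between nucleus and cytoplasm. In Hdac4, 3 of 10 peaks were higher over the mean of the times, and all 3 lay more than 100 kb inside the gene. The one at chr1:92072036-92072248 held 5.50 and 6.11 CPM in the controls, 27.3 and 21.8 after 24 h, 17.2 and 17.1 after 48 h and 13.9 and 9.41 after 72 h. The treated libraries lay above the controls and nearest to them at 72 h. It rose by 2.00 ± 0.54 at 24 h and by 1.50 ± 0.53 over the mean (edgeR adjusted p = 0.0384), from few counts in each control. The other two changed by 0.94 ± 0.31 (chr1:92086909-92087188, 30.3 and 16.8 CPM in the controls against 28.2 to 60.9) and by 0.89 ± 0.32 (chr1:92075349-92075662, 19.3 and 19.9 against 27.3 to 51.2). The former pair of groups overlapped and the latter did not, and without control replicate 2 the former change was 0.47 and not called.

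Hdac7 had 7 peaks, of which 5 were tested. The peak at chr15:97837586-97838071 held 27.5 and 10.7 CPM in the controls and 18.8 to 39.2 in the treated libraries, which overlapped, and was higher over the mean by 0.96 ± 0.34. The size rested on single controls, at 0.25 without control replicate 2 (edgeR adjusted p = 0.809) and 1.58 without control replicate 1. A pair of weaker peaks was called at 24 h alone. At chr15:97832261-97832444 the controls held 5.50 and 6.11 CPM and the 24 h libraries 27.3 and 19.1, a rise of 1.91 ± 0.56. At chr15:97824156-97824367 they held 5.50 and 7.64 and the 24 h libraries 23.9 and 19.1, a rise of 1.59 ± 0.55.

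Hdac5 went the other way. Its peak at chr11:102201411-102201722, 6 kb inside the gene, held 41.3 and 33.6 CPM in the controls, 11.9 and 15.0 after 24 h, 14.6 and 13.7 after 48 h and 30.0 and 15.7 after 72 h. All treated libraries were below the controls, with 72 h replicate 1 close to them. The fall was -1.40 ± 0.39 at 24 h, -1.35 ± 0.38 at 48 h and -1.11 ± 0.31 over the mean (edgeR adjusted p = 0.00654), and at 72 h the change of -0.60 ± 0.39 was not called. The other 3 Hdac5 peaks, 3 Hdac9 peaks and 2 peaks of Hdac6, a tubulin deacetylase of class IIb, were not called in any comparison.

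Both falls at Hdac11, which lies apart from the other classes, were outside the gene. The peak 9251 bases away (chr6:91147169-91147670) held 102 and 99.4 CPM in the controls and 40.8 to 76.3 in the treated libraries. The peak 18316 bases away (chr6:91192772-91193245) held 105 and 113 CPM in the controls and 53.2 to 100.4 in the treated libraries. Neither pair of groups overlapped, and the mean changes were -0.65 ± 0.18 and -0.62 ± 0.17.

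The fall with the smallest adjusted p was at the 5′ end that the gene table gives Sirt4, which encodes a mitochondrial sirtuin, in a broad peak of 1431 bases (chr5:115489563-115490993). It held 267 and 252 CPM in the controls, 116 and 124 after 24 h, 122 and 111 after 48 h and 143 and 94.1 after 72 h. All 6 treated libraries were far below both controls and did not move further with time. The change was -1.10 ± 0.15 at 24 h, -1.14 ± 0.15 at 48 h, -1.08 ± 0.17 at 72 h and -1.10 ± 0.13 over the mean (edgeR adjusted p = 1.69e-11). It was the only peak of these genes lower at all 3 times, and it was called under every alternative fit, DESeq2 included (adjusted p = 4.13e-05).

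That peak overlaps Gm24265 and Gm24407, small nuclear RNA (snRNA) genes of 141 bases each, and lies 977 bases from Pxn, the gene of the adhesion protein paxillin. Among all tested peaks within 1 kb of an snRNA gene, 37 of 61 were lower over the mean of the times and 0 higher, with a median of -0.80 (same edgeR fit). Of 3 such peaks at the genes described here 1 was lower, the broad Sirt4 peak, and 2 were not called. Those 2 were a Sirt4 peak 83 bases from Gm24265 and the Kmt5c peak, 646 bases from the snRNA gene Gm24537. The gene table ends Sirt4, on the minus strand, at base 115490264 inside the broad peak, whereas the start table lists its 1 start at base 115484297, so these annotations disagree on where the gene begins. The peak over the listed start, 5981 bases from the centre of the broad peak, held 41.3 and 55.0 CPM in the controls and 35.8 to 57.8 in the treated libraries, which overlapped. It changed by -0.19 ± 0.23 and the third Sirt4 peak by -0.24 ± 0.40, and neither was called. The part of the snRNA genes in the fall was not tested.

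**Figure D3:**
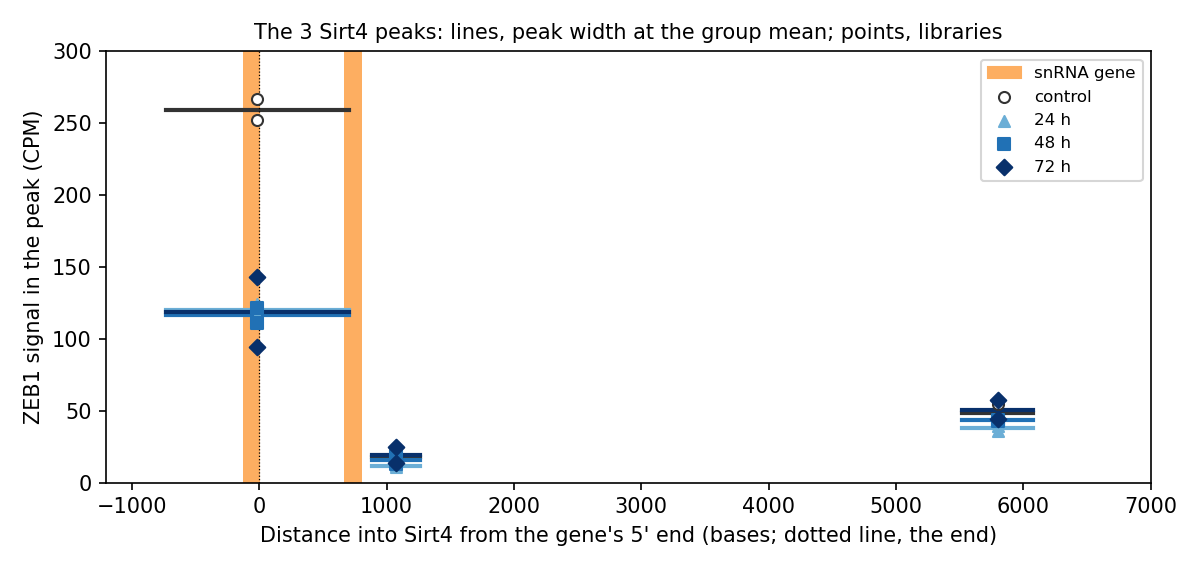
The 3 peaks at Sirt4 by distance into the gene from its 5′ end, with CPM on the vertical axis. Horizontal lines give the width of each peak at its group mean, points the libraries and shaded bands the 2 snRNA genes, and the controls stand apart only at the peak over the 5′ end.

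Sirt7, a sirtuin of the nucleolus and chromatin, had 1 weak boundary peak (chr11:120624650-120624831). It held 5.50 and 1.53 CPM in the controls, 6.82 and 5.46 after 24 h, 7.94 and 3.42 after 48 h and 23.1 and 22.0 after 72 h. Both 72 h libraries stood above all others. With 3 counts in the controls and 17 at 72 h the ratio was 7.67 (exact 95% interval 2.22 to 40.9, counting error only), and the rise at 72 h was called by edgeR (adjusted p = 0.0109). Sirt3, Sirt5 and Sirt6 had 1 peak each and none was called.

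Among JmjC demethylases, Kdm2b had the peak that was higher at all 3 times, the only such peak of these genes. Kdm2b demethylates lysine 36 of histone H3 and binds CpG islands as part of a Polycomb complex. The peak, 10 kb inside the gene (chr5:122979128-122979570), held 8.25 and 12.2 CPM in the controls, 37.5 and 28.6 after 24 h, 30.4 and 32.5 after 48 h and 39.3 and 31.4 after 72 h. The 6 treated libraries lay together, well above both controls. In the controls 1 count was worth 2.75 and 1.53 CPM, so the control levels rest on few counts. The rises were 1.57 ± 0.43, 1.52 ± 0.43 and 1.71 ± 0.47 in order of time and 1.60 ± 0.38 over the mean (edgeR adjusted p = 0.00127).

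The other Kdm2b peak (chr5:122900261-122900708) covers a second annotated start, whose upstream sequence is printed above. It held 38.5 and 38.2 CPM in the controls, 59.7 and 53.2 after 24 h, 67.5 and 75.3 after 48 h and 83.2 and 78.4 after 72 h. The groups did not overlap and each later time was higher. It was called at 48 h (0.88 ± 0.26) and 72 h (1.08 ± 0.28), and the difference between 72 and 24 h of 0.53 ± 0.25 was not.

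Kdm4 enzymes remove methyl groups from lysines 9 and 36 of histone H3. At a start of Kdm4c (chr4:74251596-74251942), with 1 E-box match in the printed stretch, the controls held 16.5 and 15.3 CPM and the treated libraries 20.5 and 27.3, 33.1 and 42.8, and 37.0 and 31.4. None overlapped, and the rise over the mean was 0.99 ± 0.34. At the boundary of Kdm4a (chr4:118137804-118138039) the controls held 13.8 and 4.59 CPM and the treated libraries 13.6 to 25.7, which overlapped by a narrow margin, and the rise was 1.35 ± 0.47. It was 0.57 without control replicate 2, where it was not called, and 2.09 without control replicate 1. At the boundary of Kdm4b (chr17:56325628-56326403) only 72 h was called, with 132 and 113 CPM against 85.3 and 70.3 in the controls (0.71 ± 0.22).

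Kdm6b, which removes methyl groups from lysine 27 of histone H3, had 7 peaks. The one at chr11:69418803-69419211 held 52.3 and 73.4 CPM in the controls, 35.8 and 40.9 after 24 h, 38.4 and 41.1 after 48 h and 69.3 and 59.6 after 72 h. It was lower at 24 h (-0.76 ± 0.26) and 48 h (-0.73 ± 0.26), and at 72 h its libraries lay within the range of the controls. Without control replicate 2 the changes at 24 and 48 h were -0.42 and -0.40, and neither was called. The Kdm peak with the highest mean CPM was assigned to Kdm7a, which acts on lysines 9 and 27 of histone H3, from 37061 bases away (chr6:39243104-39244564). It held 201 and 188 CPM in the controls and 121 to 157 in the treated libraries, which did not overlap, and was lower by -0.40 ± 0.13 over the mean.

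Of the methyltransferases, Kmt5b, a lysine 20 enzyme of histone H4, had a peak in each direction, both outside the gene. The peak 1816 bases away (chr19:3765159-3765934) held 189.8 and 206 CPM in the controls and 122 to 164 in the treated libraries, a fall of -0.46 ± 0.13. The peak 14768 bases away (chr19:3832768-3833374) held 85.3 and 110.1 CPM in the controls and 116 to 173 in the treated libraries, a rise of 0.42 ± 0.15. Neither pair of groups overlapped, and the latter was the last to pass the threshold (edgeR adjusted p = 0.0488), next to the Hdac7 peak at chr15:97832261-97832444 that did not (0.0808). Without control replicate 2 that rise was 0.67 and not called.

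Kmt2 enzymes methylate lysine 4 of histone H3, although Kmt2e itself is known as a reader with little such activity. A Kmt2e peak 22903 bases from the gene (chr5:23409907-23410360) was lower at 24 h by -0.82 ± 0.27, with 37.5 and 34.1 CPM against 74.3 and 56.6 in the controls. Kmt2a and Kmt2b, with 1 peak each, were not called in any comparison.

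Time by time, 6 peaks were higher and 7 lower at 24 h, where 11.0% of all peaks were called (6.44% higher, 4.61% lower). At 48 h 7 were higher and 4 lower (11.5%, as 6.09% and 5.41%). At 72 h 9 were higher and 3 lower (12.6%, as 6.84% and 5.74%). The shares of these genes' peaks called, 14.1, 12.0 and 13.0%, lie near those of all peaks. The median log2 fold changes were -0.01, 0.11 and 0.26 in order of time, beside -0.01, 0.00 and 0.00 over all peaks. Without control replicate 2 the counts called were 1, 1 and 2 in order of time (2.3, 2.34 and 3.22% of all peaks). DESeq2 called the Sirt4 peak alone at each time (0.97, 0.784 and 0.915% of all peaks with an adjusted p). The 3 comparisons share the control libraries.

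Between 72 and 24 h, which share no library, 9 of the 92 peaks were higher and 0 lower, where 2.32% of all peaks were higher and 2.39% lower (4.71% in all). That is 9.78% of the tested peaks of these genes, above the share of all peaks. The unadjusted p was below 0.05 for 24 of them, of which 3 were lower at 72 h. The median difference was 0.23 on the log2 scale, beside -0.01 over all peaks. DESeq2 gave an adjusted p to 30 of the 92, and to 5 of the 9, and called 0 of them, where it called 0.0781% of the 6401 peaks with an adjusted p. Its unadjusted p was below 0.05 for 11 of the 92. The 72 h libraries were the shallower, with 441521 and 326944 counts against 602187 and 747259 at 24 h. With libraries thinned to 326944 counts edgeR kept 3 of the 9 and called 1 other peak lower. Leaving out any 1 of the 24 or 72 h libraries left between 1 and 3 of the 9 called.

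The peak at the boundary of Kmt2c, an enhancer methyltransferase, differed most (chr5:25499615-25499812). It held 8.25 and 19.9 CPM in the controls, 5.12 and 4.09 after 24 h, 14.6 and 13.7 after 48 h and 27.7 and 22.0 after 72 h, a difference of 2.42 ± 0.61 between 72 and 24 h. The 24 h pair lay below every other library, and no time was called against control. With 1 count worth 1.71 and 1.36 CPM in the 24 h libraries, this difference rests on few counts. DESeq2 gave it no adjusted p. At Kdm4b the 24 h libraries held 61.4 and 77.8 CPM, and the difference was 0.81 ± 0.21.

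For Kdm3a, a lysine 9 demethylase, the start peak (chr6:71632722-71633527) held 99.0 and 84.1 CPM in the controls, 66.5 and 69.6 after 24 h, 84.7 and 95.8 after 48 h and 120.2 and 100.4 after 72 h. The difference was 0.71 ± 0.22, with the controls between the 2 times. Kdm1b, a flavin-dependent lysine 4 demethylase, had the same order at its start (chr13:47043149-47043736), with 99.0 and 110.1 CPM in the controls, 73.3 and 80.5 after 24 h, 124 and 85.5 after 48 h and 134 and 109.8 after 72 h. The difference there was 0.68 ± 0.21, and 72 h overlapped the controls. Kmt2e at its boundary (chr5:23432570-23433504) went from 64.8 and 66.8 CPM at 24 h to 94.8 and 138 at 72 h, beside 93.5 and 79.5 in the controls.

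A pair of Kdm6b peaks inside the gene also differed between the times. At chr11:69411377-69412220 the libraries held 34.1 and 39.6 CPM at 24 h and 71.7 and 65.9 at 72 h, with the controls at 60.5 and 30.6. At chr11:69417601-69418399 they held 64.8 and 47.7 at 24 h and 90.1 and 113 at 72 h, with the controls at 77.0 and 76.4. The 72 h libraries were above both 24 h libraries and both controls at each peak, and neither was called against control at any time.

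**Figure D4:**
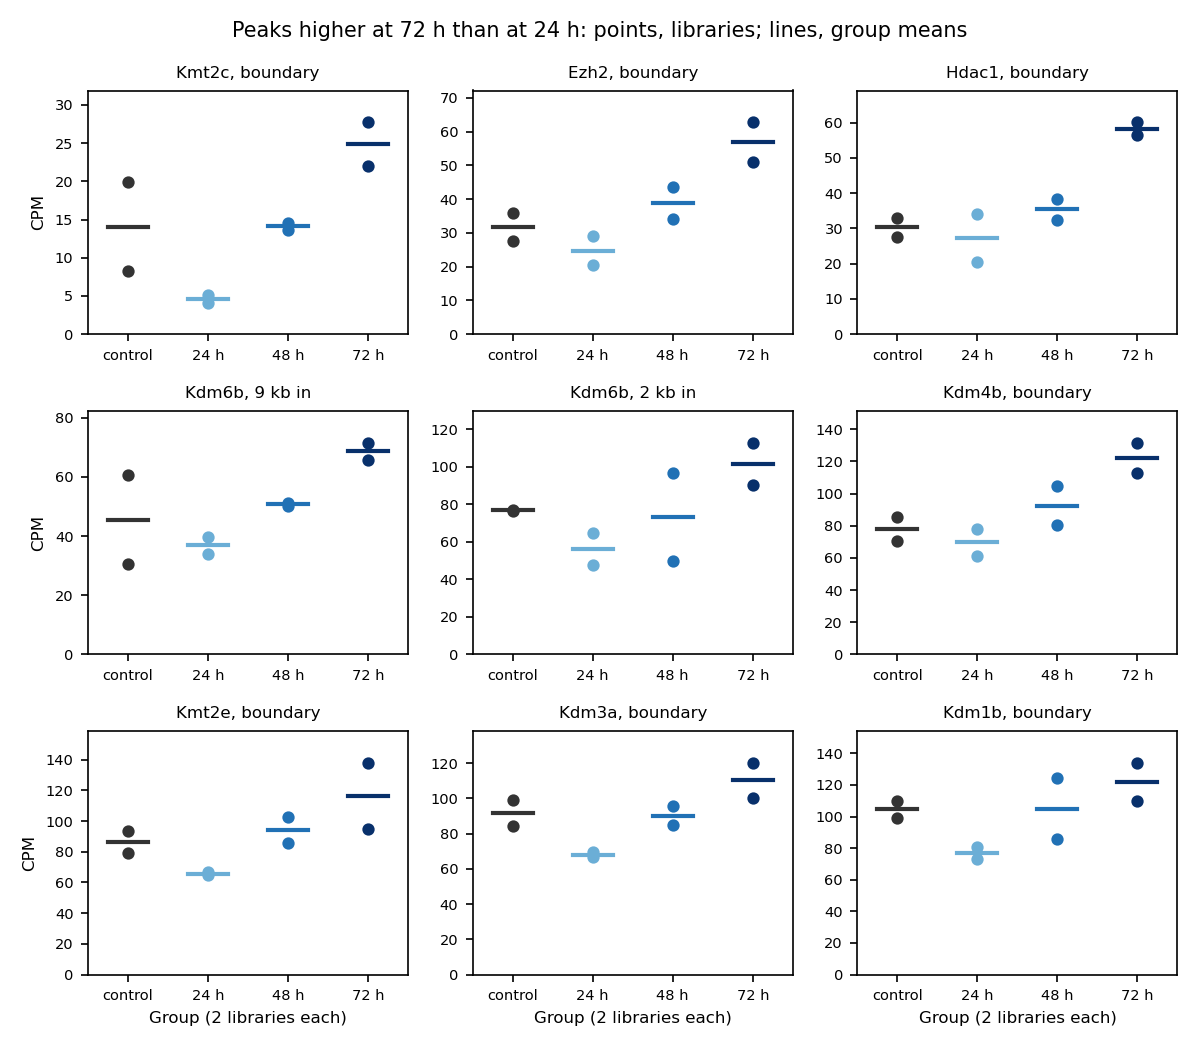
CPM of each library, by group, for the 9 peaks higher at 72 h than at 24 h (points, libraries; lines, group means; each panel has its own axis from 0). In every panel both 72 h points are above both 24 h points, and in 7 of the 9 the peak lies at a gene boundary.

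The position of a peak moved with these values. Of the 9 peaks 7 were at a gene boundary, and 29 tested peaks of these genes lay there, so 24.1% were higher, beside 5.77% higher and 0.265% lower of 6027 boundary peaks of all genes (6.04% in all). The median difference between 72 and 24 h was 0.57 for the boundary peaks of these genes and 0.32 for boundary peaks of all genes. At 72 h against control the medians were 0.42 and 0.37, and at 24 h against control they were -0.13 and 0.06. The 2 sets of boundary peaks thus lay further apart at 24 h than at 72 h. The difference between these genes and other genes at the same kind of position was not tested.

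**Figure D5:**
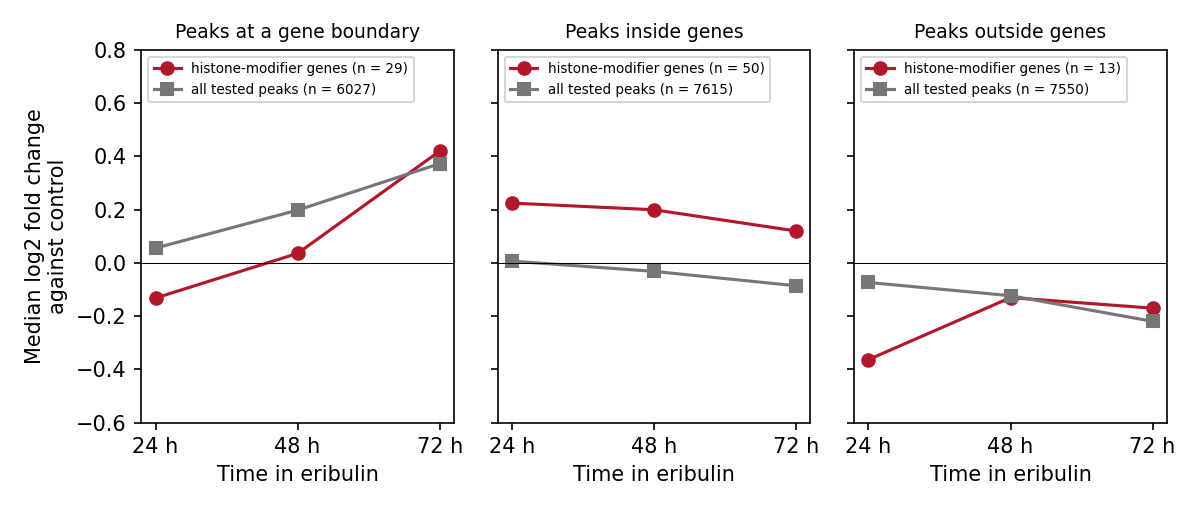
Median log2 fold change against control at 24, 48 and 72 h for peaks at a gene boundary, inside genes and outside genes. Circles are the tested peaks of the histone-modifier genes and squares all tested peaks, and at boundaries both end near each other at 72 h (0.42 and 0.37).

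Inside genes 8 of 50 peaks were higher and 1 lower over the mean of the times, with a median of 0.17. That is 18% called, near the 16.2% of 7615 inside peaks of all genes (7.28% higher and 8.9% lower), whose median was -0.05. Outside genes 1 of 13 was higher and 4 lower (38.5%), with a median of -0.25, beside 18.7% of 7550 outside peaks (5.64% higher and 13.0% lower) and a median of -0.15. At boundaries 3 of 29 were higher and 1 lower (13.8%), beside 15.2% of all boundary peaks (12.8% higher and 2.41% lower). At the 22 peaks over an annotated own start 3 were higher and 0 lower, those of Ezh1, Kdm2b and Kdm4c. Their share of 13.6% is near that of all peaks over a protein-coding start (12.9% higher and 1.81% lower of 4962).

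In the authors' deposited peak lists, made for each group against IgG, the control list held 76 of the 100 peaks and the lists of 24, 48 and 72 h held 66, 65 and 63. The same lists held 78.7, 63.0, 60.2 and 51.6% of all consensus peaks. The median fold over IgG in those tables was 7.25, 7.43, 8.38 and 6.75 for the peaks of these genes. All 4 lists shared 37 of the peaks, 15 were in the control list alone and 5 were in the 3 treated lists alone, among them those of Ezh1, Kdm2b and Hdac4 described above. The shares of all consensus peaks in these combinations of lists were not counted, so whether these numbers are unusual is not known. The control list held 6 of the 12 higher peaks, all 6 lower peaks and 59 of the 74 peaks not called. The list and the calls come from the same control libraries, so these counts are no separate evidence of direction.

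The remaining 60 tested peaks were not called in any comparison, with mean changes between -0.61 and 0.98 on the log2 scale. Genes with tested peaks but none called were Hdac6, Hdac9, Kdm1a, Kdm2a, Kdm3b, Kdm5a, Kdm5b, Kdm5c, Kdm6a, Kdm8, Kmt2a, Kmt2b, Kmt5a, Kmt5c, Sirt3, Sirt5 and Sirt6. Kdm1a, the demethylase of the CoREST complex, is one of them, as are all Kdm5 enzymes with a peak, which remove methyl groups from lysine 4 of histone H3.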

How the data were processed

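ZEB1 CUT&RUN counts of 8 libraries were analysed. The submitters' processing notes name GRCm38 (mm10), Bowtie2 2.2.6 and cutadapt 2.4, as well as MACS2 2.1.1, featureCounts, Picard, bedtools 2.30.0, deepTools and bcl2fastq 2.20.0.422. Their roles and settings are not given in the sources used here, and the labels give paired reads of 76 bases. For every consensus peak the table deposited by the authors gives whole-number counts of the 8 libraries, unscaled. For every group a deposited peak list gives each peak's fold enrichment over IgG (a ratio) and the −log10 of its q. They are named for replicate 1 against IgG, and the 1 IgG library entered no test.

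Peaks were assigned with the RefSeq gene table of GRCm38.p6 (49997 genes, 21900 protein-coding on the chromosomes used). Counts were filtered by group (filterByExpr), scaled with TMM (factors 0.994 to 1.01) and fitted with edgeR 4.0.16 in R 4.3.3, with 1 mean per group, robust quasi-likelihood dispersions and 4 residual degrees of freedom. Contrasts set each time, and the mean of all times, against control and 72 h against 24 h, with Benjamini-Hochberg adjustment over 21192 peaks. Standard errors are |log2 fold change| divided by the square root of F. Tables were built in Python 3.11.15, and the fit was tested on simulated data. No added control DNA was used for scaling, so a change shared by all peaks cannot be seen. Depth was 326944 to 765015 counts, and intervals cover counting error only.

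The members and lists were chosen with earlier results of these data known. Peaks named with values are those called in any of the 5 comparisons, the one with the highest mean CPM in each family, those next to the threshold in the mean comparison and, of related lists, up to 3 called peaks in each direction with the largest change. Some peaks of the related lists are not reported here. The numbers of replicates are shared by groups, but differences between replicates correlated between groups only at -0.0296 to 0.000833, and the labels name no shared day, so replicate number was a block only in an alternative. Other alternatives were DESeq2 1.42.0, RLE size factors, no filter, each library left out, narrower assignment, libraries thinned to 326944 counts and, chosen after seeing the data, summed replicate pairs.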

Additional observations from a re-analysis of the deposited data

Results flagged for a closer look

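For 9 peaks the change at 72 h differed from that at 24 h by the test of the difference itself (edgeR's quasi-likelihood F-test, Benjamini-Hochberg adjusted over all tested peaks). In all 9 both 72 h libraries were above both 24 h libraries. That order is nearly given by the call, and 45 of the 100 peaks of these genes had it. The share of all consensus peaks with that order was not counted, so whether 45 is unusual is not known. The log2 differences were 2.42 for the Kmt2c boundary peak, 1.20 for the peak at the start of Ezh2 and 1.06 for the Hdac1 boundary peak. At Kdm6b they were 0.89 for the peak 9 kb inside the gene and 0.85 for the peak 2 kb inside it. At the Kdm4b boundary the difference was 0.81, at the Kmt2e boundary 0.78, at the Kdm3a start 0.71 and at the Kdm1b start 0.68. Of these 9 only Hdac1 and Kdm4b were also called against control, both at 72 h.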

How the results depend on the processing

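No call changed direction in any fit (63 calls of a peak in a comparison), and 4 calls, all of the Sirt4 peak, were kept in all fits. All fits draw on the libraries on which the calls were made, so a kept direction is no separate support. The counts of called peaks moved in the order 24 h, 48 h, 72 h, mean of the times and 72 h against 24 h, from 13, 11, 12, 18 and 9. DESeq2 gave 1, 1, 1, 1 and 0, of 40, 44, 59, 65 and 30 peaks with an adjusted p, and libraries thinned to the lowest total gave 3, 3, 6, 5 and 4. The last 4 were 3 higher, all among the 9, and 1 lower that the main fit had not called. Leaving out 1 library gave 1 to 13, 1 to 12, 2 to 12, 1 to 17 and 1 to 10. With only peaks whose centre lies inside the gene, 63 tested peaks remained of the 92. The counts were then 7 at 24 h, 6 at 72 h and 11 for the mean, or 11.1, 9.52 and 17.5% of the 63. At 72 h these were 6 higher and 0 lower, and for the mean 10 higher and 1 lower. Summed pairs gave 8 at 24 h and 5 for 72 h against 24 h, from a fit of 5 libraries whose spread rests on the 48 h pair. With the replicate number as a block they were 12, 9, 12, 15 and 7, and with 2 replicates a group and near-zero correlations the numbers are not shown to pair the libraries. RLE size factors, no filter on low counts and assignment within 10 kb kept each count within 1.5 times. At a −log10 q of at least 5, the 72 h list held 41 of the peaks in place of 63. Of 584 alternatives for the changes of single named peaks, 459 kept the side of the threshold and 125 fell below it. Changes not called in the main fit are among the 584 and could not fall below it. The 459 therefore do not measure how well the calls held. The cause of the lower counts was not tested, and at 1.32 to 3.14 CPM per count peaks near 10 CPM rest on a few counts.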

Other observations

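Genes of other writers, erasers and partner subunits were counted in the same edgeR fit over the mean of the 3 times, where 8.27% of all peaks were higher and 8.53% lower. Of 26 peaks at other histone methyltransferases 0 were higher (0 also at unadjusted p below 0.05) and 3 lower. The lower peaks were at Nsd2 (-1.15 ± 0.24, 68.8 and 59.6 CPM in the controls against 12.5 to 41.0 in the treated libraries), Dot1l (-0.50 ± 0.14) and Setd5 (-0.46 ± 0.14). Nsd2 dimethylates lysine 36 and Dot1l methylates lysine 79 of histone H3. Of 12 peaks at partner subunits of Polycomb repressive complex 2, 1 was lower, at Jarid2 (-1.10 ± 0.32), while Ezh1 and Ezh2 each had a higher peak.

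Among 47 peaks at subunits of the deacetylase and Kdm1a complexes 2 were higher and 5 lower. Rcor3, a CoREST scaffold, had a higher boundary peak (1.01 ± 0.28, 33.0 and 19.9 CPM in the controls against 37.6 to 57.8). Ctbp2, a corepressor that ZEB1 binds, had a lower peak inside the gene (-0.62 ± 0.22). Of 11 peaks at other demethylases 1 was lower, at Jmjd1c (-0.54 ± 0.18). Of 12 peaks at COMPASS subunits 0 were called (2 at unadjusted p below 0.05), and of 11 at acetyltransferases 0 (1 at unadjusted p below 0.05). Without control replicate 2 the Nsd2 call alone of the peaks named was kept (adjusted p = 0.0229), and DESeq2 called 0 peaks of these lists, among those it gave an adjusted p.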
